A study of Mus musculus with 3 samples.

Results

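Prrx1, Prrx2, Alx1, Alx4, Twist1 and Twist2 encode transcription factors of the embryonic mesenchyme, and the sites bound by RNA polymerase II (RNAP2) and by Med12 around these 6 genes were examined in the distal mouse forelimb. The genes were taken by name, as 6 of 22367 protein-coding genes of the GENCODE vM1 annotation on the mm9 build, by a rule that uses no binding value. For each gene, every peak of either list that overlapped the gene or lay within 200 kb of its start was kept. For Twist1, the neighbouring gene Hdac9 was included over its whole length. These windows spanned 2771224 bp and held 61 of 20479 RNAP2 peaks and 36 of 10634 Med12 peaks.

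RNAP2 and Med12, which belongs to the Mediator complex that bridges transcription factors and RNAP2, were mapped by chromatin immunoprecipitation and sequencing (ChIP-seq) in distal forelimbs dissected from mouse embryos. The tissue was dissociated with collagenase and fixed before the chromatin was sheared. The labels give the stage as E12.5 for all 3 samples, whereas the design text of the series names an earlier embryonic day, and the labels give neither strain nor genotype nor the number of pooled embryos. Each antibody had 1 library, the PolII antibody and the Med12 antibody, and a further library was input chromatin without antibody, for which no peak list was analysed here. There were thus no replicates, no test between groups was possible, and the values below describe these libraries alone.

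Prrx1 and Prrx2 are paired-related homeodomain proteins, and the Prrx1 regulatory region is widely used to drive transgenes in limb mesenchyme. Alx1 and Alx4 are aristaless-type homeodomain proteins known for their roles in the face and, for Alx4, in restricting digit formation at the anterior limb margin. Twist1 and Twist2 are basic helix-loop-helix (bHLH) proteins that bind the E-box as dimers with E proteins or with Hand proteins, and loss of one Twist1 copy alters the skull sutures and digits. Enhancers of Twist1 are known within Hdac9, a histone deacetylase gene, and some of them contain coding exons of that gene. Sites away from gene starts that carry both RNAP2 and Mediator are a common feature of active enhancers, and this combination was among those the study used to search for enhancers.

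The value of a peak is the score given by the authors' peak caller, which equals −log10 of a p-value multiplied by 10. A score rises with the depth of the library and with the width of the peak, so scores were ranked within a list and never compared between lists. The RNAP2 list had a median score of 123 and a median width of 1328 bp, and the Med12 list a median score of 56.8 and a median width of 972.5 bp. The lists hold no read counts, so the depth behind a single peak is unknown. The tissue label was checked with the starts of fixed marker genes. RNAP2 was called within 1 kb of the start at 6 of 7 distal limb mesenchyme genes (Sall4 had none), at 3 of 3 proximal limb genes and at 2 of 2 cartilage genes. Among markers of other cells they lay at 1 of 5 ectoderm genes, 1 of 3 muscle genes, 1 of 3 endothelium genes, 0 of 3 blood genes and 0 of 2 nerve genes, and at 0 of 3 genes not used in the limb. Med12 had no peak at any of these marker starts, those of the limb mesenchyme included. Over all coding genes the shares with a peak at the start were 40.0% for RNAP2 and 8.20% for Med12. The check does not separate distal from proximal limb. The RNAP2 peak at the proximal gene Meis2 scored 43.0, near the foot of the list. The 3 starts of other cells with RNAP2 were those of Tfap2a, Pax3 and Kdr, and the part of such cells in the peaks described here was not tested. In a mixed tissue, binding in fewer cells and weaker binding per cell cannot be told apart.

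RNAP2 was found at the starts of 4 of the 6 genes, namely Prrx1, Prrx2, Alx1 and Twist1, and was not called at those of Alx4 and Twist2. A start was counted as occupied when a peak lay within 1 kb of the 5′ end of the gene, which holds for 40.0% of protein-coding genes. Med12 was found at the starts of Prrx1, Prrx2 and Twist1, 3 of the 6 genes, where the share over all coding genes is 8.20%. All 3 of these starts also had RNAP2, a combination seen at 7.58% of coding genes. The Prrx2 start owes its Med12 call to a peak with a score of 40.1, rank 10595 of 10634, so that call stands at the very foot of the list. Each family thus held a member with RNAP2 at the start, and in the Alx and Twist families a second member had none.

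The scores at the occupied starts differed widely, over peaks that also differed in width. Twist1 had the highest score, 2686, which ranks 436 among the 8953 coding genes with RNAP2 at the start. Prrx1 followed with 1973, rank 787. Alx1, with 571 and rank 3451, and Prrx2, with 266 and rank 5448, lay in the middle and the lower part of that order. The Prrx2 score is that of an intronic peak that began 947 bp downstream, and no RNAP2 peak covered the start itself. For Med12 the order changed, with Prrx1 first at 219.7 (rank 96 of 1835 genes), Twist1 next at 88.3 (rank 600) and Prrx2 last at rank 1833. RNAP2 peaks of at least 4 kb at a start, found at 0.939% of coding genes, were seen at 2 of the 6, at Prrx1 with 8787 bp (width rank 29 of 8953) and at Twist1 with 4430 bp (width rank 162).

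**Figure D1:**
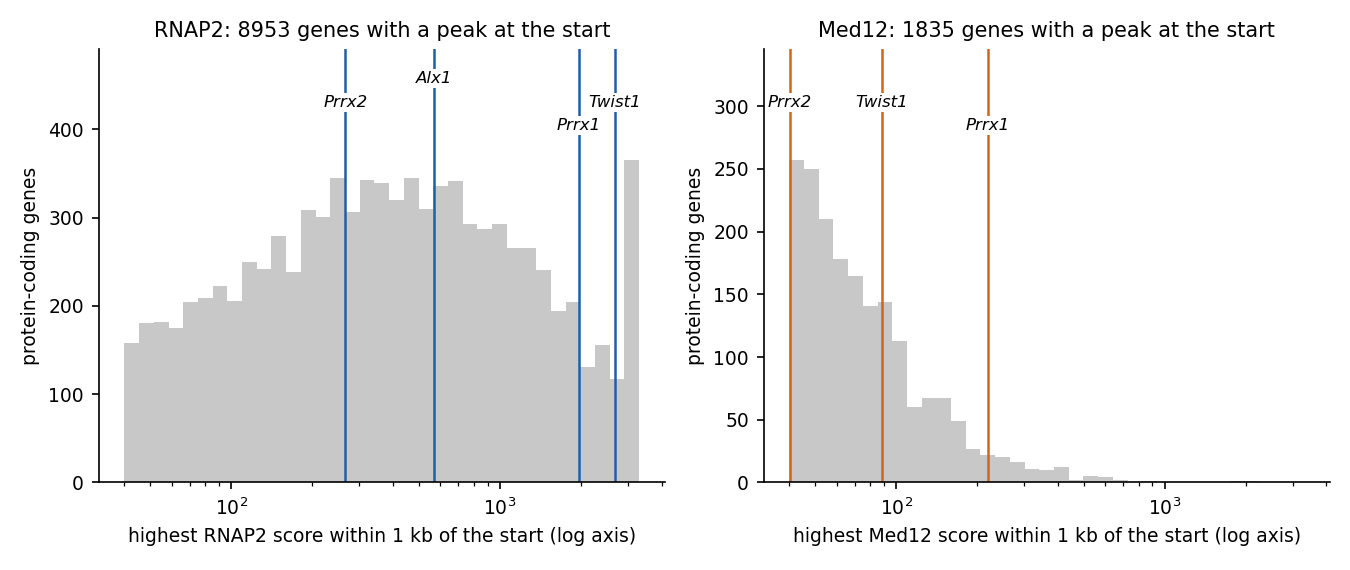
Number of protein-coding genes (vertical axes) by the highest score of RNAP2 (left) or Med12 (right) within 1 kb of the start (log axes), for genes that have such a peak. Vertical lines mark the 4 genes with RNAP2 at the start and the 3 with Med12. Twist1 and Prrx1 stand in the upper part of the RNAP2 range, and the Med12 line of Prrx2 stands at the lower end of the Med12 range. The RNAP2 line of Prrx2 is that of a peak that began 947 bp downstream of the start.

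Away from starts, sites with both proteins were found at 5 of the 6 genes, Alx1 being the exception. At least 1 such distal site, meaning an RNAP2 peak overlapped by Med12 and more than 1 kb from any annotated transcript start, is found in the same window of 22.8% of coding genes. For Alx4 and Twist2 the call rested on 1 site each, and both sites were lost at a score of at least 100 or in a window of 100 kb. The 6 windows held 44 distal RNAP2 peaks, of which 17 (38.6%) overlapped a Med12 peak, against 25.0% of the 10692 distal RNAP2 peaks of the genome. Of 32 distal Med12 peaks, 20 (62.5%) overlapped RNAP2, against 32.5% of 8567. Both member shares include Hdac9 beyond 200 kb, a stretch added for Twist1 alone and rich in such sites. Without it, 12 distal RNAP2 peaks with Med12 remained, 3 of them around Twist1, and the shares were not recomputed. The 17 sites were made up of 8 around Twist1, 4 around Prrx1, 3 around Prrx2 and 1 each around Alx4 and Twist2. Their RNAP2 scores ran from 42.6 to 682 with a median of 232, and the best Med12 score at each ran from 45.5 to 441 with a median of 100.4. Both scores reached 100 at 8 of them, and the share over all such sites of the genome was not computed. A score of 100 is reached by 11621 of 20479 RNAP2 peaks and by 1966 of 10634 Med12 peaks, so this limit is stricter for Med12. No test of these shares was made, because the peaks of a window share a locus and a library.

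The number of peaks set Prrx1, Prrx2 and Twist1 apart from the other 3 genes. A typical coding gene had 4 RNAP2 peaks and 1 Med12 peak in its window and no distal site with both. Prrx1 had 22 RNAP2 and 8 Med12 peaks, numbers that 1.07% and 1.46% of coding genes reached, and its 4 distal sites with both were reached by 1.11%. Prrx2 had 20 and 6 peaks, reached by 1.83% and 4.17%, and its 3 distal sites with both by 2.49%. Within 200 kb, Twist1 had only 5 RNAP2 peaks, as many as 49.2% of genes, but 8 Med12 peaks, as many as 1.46%, and 3 distal sites with both. The remaining genes had fewer RNAP2 peaks than the typical coding gene, with 3 for Alx1, 3 for Twist2 and 2 for Alx4, numbers that 68.1%, 68.1% and 77.1% of genes reached. Their Med12 peaks numbered 0, 4 and 2, where 4 or more are found at 15.0% of genes.

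**Figure D2:**
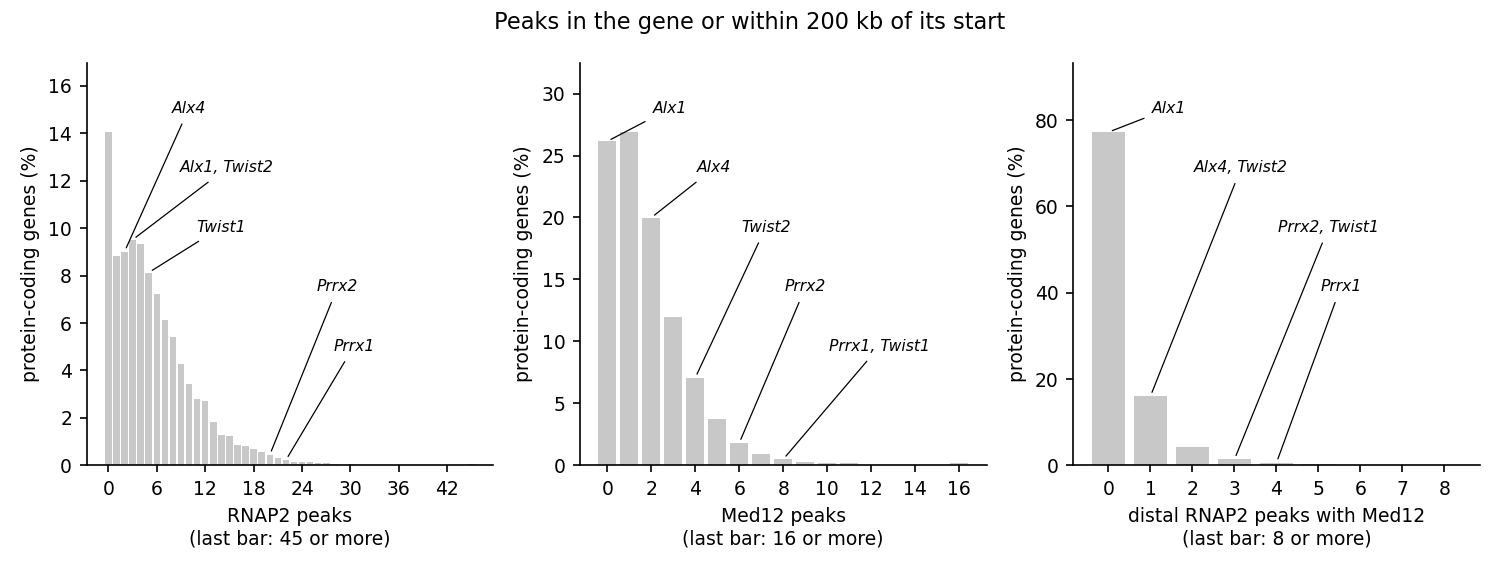
Share of protein-coding genes (vertical axes, percent) by the number of RNAP2 peaks (left), Med12 peaks (middle) and distal RNAP2 peaks with Med12 (right) in the gene or within 200 kb of its start. Names mark the bars that hold the 6 genes, with Hdac9 beyond 200 kb left out. Prrx1 and Prrx2 lie in the right tail of all 3 plots, and Twist1 in that of Med12 and of the distal sites with both but not in that of RNAP2.

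Prrx1 was the locus with the broadest RNAP2 signal. The gene (ENSMUSG00000026586.8, chr1:165175247-165243841) is transcribed from the minus strand, so that larger coordinates are upstream. RNAP2 covered the start and ran on into the gene body in a peak from 165237051 to 165245837 that scored 1973, and a Med12 peak from 165243192 to 165245498 with a score of 219.7 lay over the start and the sequence upstream of it. Its promoter, 250 bases before to 50 bases after the start (chr1:165243792-165244091, minus strand, mm9), is shown because it lay under both peaks. Capitals mark an E-box (CANNTG, with N any base) and the homeodomain core TAATTA, which 69.6% and 4.83% of 22362 coding promoters of the same length hold.
Prrx1 promoter: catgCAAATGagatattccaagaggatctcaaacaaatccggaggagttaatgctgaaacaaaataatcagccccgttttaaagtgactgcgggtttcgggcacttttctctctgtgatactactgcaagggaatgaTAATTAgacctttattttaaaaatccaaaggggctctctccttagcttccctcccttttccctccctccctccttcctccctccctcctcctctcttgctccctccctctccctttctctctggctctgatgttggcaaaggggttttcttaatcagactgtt
The bases after TAATTA hold a long run of pyrimidines, and the ratio of observed to expected CpG was 0.27, with 69.7% of coding promoters as high or higher.

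Beyond the start, RNAP2 peaks followed each other through the whole of Prrx1. The gene held 15 RNAP2 peaks, a number that 0.349% of coding genes reached, and they covered 39134 bp or 57.1% of its length. Among 842 genes with RNAP2 at the start whose length was within 1.25-fold of that of Prrx1, the median cover was 1.82%, and the 0.119% that reached 57.1% was Prrx1 alone. The strongest of the internal peaks lay towards the 3′ end, from 165181615 to 165187637, with a score of 769, a width of 6023 bp and an exon beneath it. Another, from 165219115 to 165220688 with a score of 241, covered the start of the shorter transcript Prrx1-201 at 165219355. Over the genome, 25.0% of distal RNAP2 peaks overlapped Med12, and the share for all RNAP2 peaks inside coding genes was not computed. Of the 15 RNAP2 peaks in Prrx1, Med12 accompanied 2, at the start and at the noncoding gene Gm20471 inside Prrx1, where RNAP2 scored 179 and Med12 40.9. ChIP-seq carries no strand, so RNAP2 on Gm20471 and on Prrx1 cannot be told apart there.

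**Figure D3:**
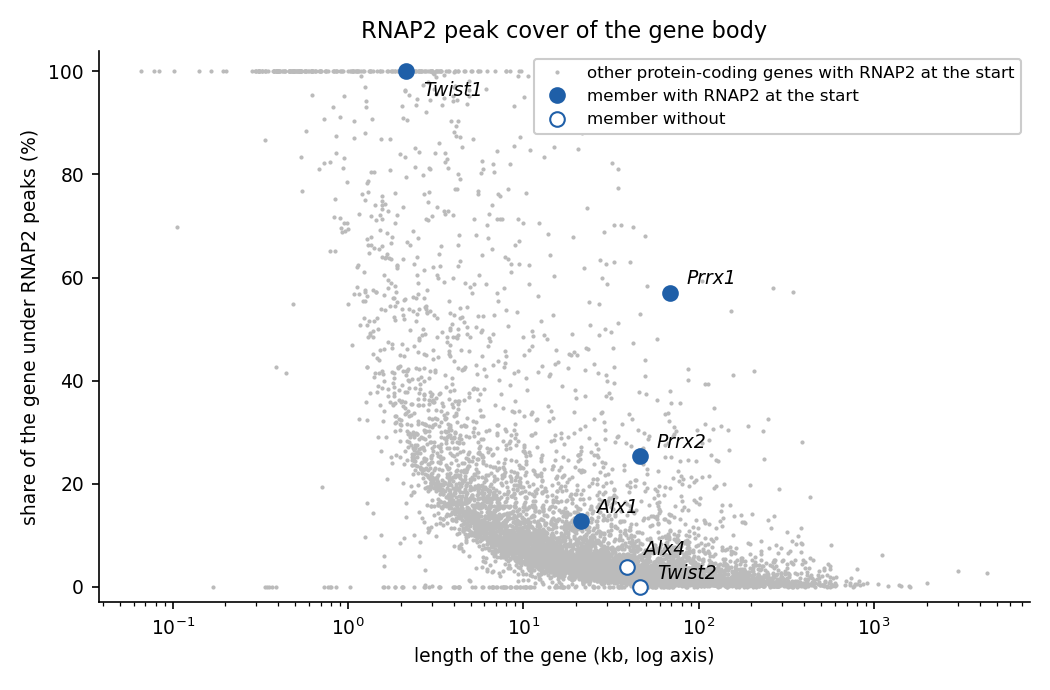
Share of each protein-coding gene that lay under RNAP2 peaks (vertical axis, percent) against the length of the gene (horizontal axis, kb, log scale). Grey points are genes with an RNAP2 peak at the start, large filled points the 4 named genes with such a peak, and open points Alx4 and Twist2, which have none. Prrx1, at 57.1%, lies above all genes of like length, Prrx2 is at 25.3%, and the short gene Twist1 was covered completely. Complete cover was found at 10.2% of the genes with a length like that of Twist1.

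The distal sites of Prrx1 with both proteins all lay upstream. The nearest, from 165286239 to 165287400 and 42.4 kb from the start, had an RNAP2 score of 105 and a Med12 score of 219. A pair of adjacent RNAP2 peaks followed at 98.4 kb and 99.8 kb, before which lay the start of Gorab, the only other coding gene of the window. The first of them scored 290.0 with Med12 at 128. The second, from 165343666 to 165347701, was 4036 bp wide, had the highest RNAP2 score among the 17 distal sites with both proteins (682) and was covered by 2 Med12 peaks with scores of 195 and 441, the latter rank 102 of the whole Med12 list. The farthest site, at 164 kb, was weaker, with 97.3 for RNAP2 and 79.4 for Med12. At the Gorab start, 89.3 kb away and shared with an annotated U6atac gene, RNAP2 scored 201 and Med12 75.8. Widening the window to 400 kb raised the number of distal sites with both from 4 to 8. A wider window can only add sites, and the share of coding genes that reach 8 at 400 kb was not computed.

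The central 200 bases of the overlap of RNAP2 and Med12 are shown for the nearest of these sites (chr1:165286719-165286918) and for the strongest (chr1:165345875-165346074), on the plus strand of mm9, because they carried the 2 highest distal Med12 scores around the gene. Capitals mark E-boxes and TAATTA.
Prrx1 site 42.4 kb upstream: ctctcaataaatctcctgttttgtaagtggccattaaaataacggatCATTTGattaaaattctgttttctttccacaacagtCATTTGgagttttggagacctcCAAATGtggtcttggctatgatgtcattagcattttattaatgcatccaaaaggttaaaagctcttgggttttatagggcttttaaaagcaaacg
Prrx1 site 99.8 kb upstream: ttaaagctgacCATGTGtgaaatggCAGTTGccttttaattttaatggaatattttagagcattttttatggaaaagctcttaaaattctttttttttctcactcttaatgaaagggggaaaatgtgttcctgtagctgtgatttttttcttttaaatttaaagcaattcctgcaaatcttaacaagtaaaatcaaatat
The former holds the E-box CATTTG and its reverse complement CAAATG, 3 copies in all, and the latter holds CATGTG and CAGTTG. Neither holds TAATTA.

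Prrx2, the paralogue of Prrx1, had many RNAP2 peaks but a weakly marked 5′ end. The gene (ENSMUSG00000039476.6, chr2:30690492-30736761, plus strand) had no RNAP2 peak over the start itself. The nearest were a peak that ended 659 bp before it, from 30688775 to 30689833 with a score of 54.9, and a peak that began 947 bp after it, from 30691439 to 30692849 with a score of 266. The Med12 peak over the start, from 30689673 to 30690794, scored 40.1. A stronger Med12 peak lay inside the gene, from 30691792 to 30692838 with a score of 341 and rank 192 of the list. It began 1300 bp from the start, just outside the limit of 1 kb, and lay wholly under the RNAP2 peak with a score of 266. The start of the shorter coding transcript Prrx2-002 at 30700579 was covered by RNAP2 between 30700264 and 30702792, with the higher score of 370, and by no Med12 peak.

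The highest RNAP2 scores of Prrx2 lay deep inside the gene rather than at its start. The intronic peaks 16.9 kb, 29.2 kb and 37.2 kb downstream of the start scored 461, 547 and 492. The first overlapped a Med12 peak of 144 and the last one of 45.5, while the middle and highest had none. A further Med12 peak 13.2 kb downstream, with a score of 51.4, had no RNAP2. In all, 7 RNAP2 peaks covered 25.3% of the gene, against a median of 2.08% over 1001 genes of like length with RNAP2 at the start, of which 2.3% were covered as much. The remaining distal site with both lay 176 kb upstream within the noncoding gene 9330198N18Rik, with 232.5 for RNAP2 and 167 for Med12. Many of the other RNAP2 peaks of this window belonged to neighbours. The highest of all, 811, lay at the start of Mettl11a, an N-terminal methyltransferase gene, and others at Tor1b (105), Tor1a (59.1) and the shared start of BC005624 and Usp20 (41.8). A peak of 379 lay within Asb6, at the start of a transcript other than the 5′ end of that gene. None of these neighbouring starts had Med12.

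The overlap of the strongest Med12 peak of Prrx2 with RNAP2 is shown by its central 200 bases (chr2:30692215-30692414, plus strand), since this intronic site lay closest to the weakly marked start. Capitals mark the E-box.
Prrx2 intron site 1300 bp downstream: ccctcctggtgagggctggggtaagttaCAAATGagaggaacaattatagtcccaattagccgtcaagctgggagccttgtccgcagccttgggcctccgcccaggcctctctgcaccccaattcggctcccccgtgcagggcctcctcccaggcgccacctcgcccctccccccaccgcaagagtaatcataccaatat
A single E-box, CAAATG, stood in these bases.

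The Alx genes differed at the start in RNAP2, which was called for Alx1 and not for Alx4, and neither start had Med12. The start of Alx1 (ENSMUSG00000036602.6, chr10:102470481-102491685, minus strand) lay in the gap between an RNAP2 peak on its downstream side, from 102488810 to 102491528 with a score of 571 and a width of 2719 bp, and a small peak on its upstream side, from 102491782 to 102492994 with a score of 59.4. The larger peak covered the start of the transcript Alx1-201 at 102491411 and came within 157 bp of that of Alx1-001, while the small peak, 97 bp away, also lay at the start of the noncoding gene Gm17028. The only other RNAP2 peak of the window was 126 kb downstream, with a score of 49.1. There was no Med12 peak within 200 kb of Alx1, and the nearest, with a score of 60.9, lay 222669 bp from the start. A window without Med12 was found at 26.1% of coding genes, so this was not rare.

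Alx4 (ENSMUSG00000040310.6, chr2:93482541-93521496, plus strand) had 1 RNAP2 peak in the gene, in an intron 3903 bp from the start, from 93486444 to 93487921 with a score of 114. With the interval widened to 5 kb on each side of the start, this peak counted as a start peak. The distal site of this window lay downstream, in an intron of Ext2, an enzyme gene of heparan sulphate synthesis that neighbours Alx4. It ran from 93612332 to 93613453, 129791 bp from the Alx4 start, with an RNAP2 score of 148 and a Med12 score of 88.6. A lone Med12 peak 94.6 kb upstream scored 40.8. Neither the start of Ext2 nor those of Cd82 and Gm10803, the other coding neighbours, had a peak of either list. The central bases of the Ext2 site (chr2:93612784-93612983, plus strand) are given as the only site of either Alx gene with both proteins, with the E-box in capitals.
Alx4 window, Ext2 intron site: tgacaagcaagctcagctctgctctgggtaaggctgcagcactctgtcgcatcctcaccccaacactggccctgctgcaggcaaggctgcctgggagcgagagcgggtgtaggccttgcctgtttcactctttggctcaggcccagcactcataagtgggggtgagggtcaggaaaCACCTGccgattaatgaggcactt
The E-box, CACCTG, lay near the end of the stretch.

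Twist1 combined a compact gene wholly under RNAP2 with a long row of Med12 sites. The gene (ENSMUSG00000035799.5, chr12:34642536-34644682, plus strand) is 2147 bp long and lay within the RNAP2 peak from 34641520 to 34645949, which scored 2686, rank 432 of all RNAP2 peaks. A Med12 peak from 34641181 to 34642658 with a score of 88.3 lay over its start. Among 254 genes of like length with RNAP2 at the start, the median cover was 37.7%, and 10.2% were covered completely. RNAP2 did not stop at the end of the gene. A peak 3.5 kb from the start scored 368 with Med12 at 72.5, a small peak 5.92 kb from the start scored 42.6 with Med12 at 72.1, and the last, from 34650485 to 34653595, scored 487 without Med12. The first of these 3 began at 34646035, directly after the end of the peak over the gene, and all were counted as distal because no annotated start lay within 1 kb.

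Twist2 presented the reverse picture. Neither list had a peak at the start of Twist2 (ENSMUSG00000007805.3, chr1:93698038-93744605, plus strand). The nearest RNAP2 peak was 40692 bp and the nearest Med12 peak 31059 bp away, both upstream and both near the foot of their lists with 41.3 and 41.6. The gene itself held no peak. At the far edge of the window, 189 kb upstream, RNAP2 scored 265.5 and Med12 59.4 at the same site. Lone Med12 peaks lay 183 kb upstream (74.8) and 51.5 kb downstream (59.1), and a lone RNAP2 peak with a score of 90.1 lay in an intron of Hdac4, 161 kb downstream.

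Both Twist promoters are shown, since the paralogues differed most in occupancy, for Twist1 from chr12:34642286-34642585 and for Twist2 from chr1:93697788-93698087, each on the plus strand of mm9 from 250 bases before to 50 bases after the start. Capitals mark TATAAA and CCAAT, which 13.4% and 37.9% of coding promoters hold on either strand.
Twist1 promoter: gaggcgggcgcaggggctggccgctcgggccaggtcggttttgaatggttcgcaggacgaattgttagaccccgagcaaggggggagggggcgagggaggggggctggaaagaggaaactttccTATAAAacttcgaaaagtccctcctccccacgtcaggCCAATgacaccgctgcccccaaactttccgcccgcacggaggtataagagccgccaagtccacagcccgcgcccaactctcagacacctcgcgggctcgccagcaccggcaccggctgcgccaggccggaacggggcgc
Twist2 promoter: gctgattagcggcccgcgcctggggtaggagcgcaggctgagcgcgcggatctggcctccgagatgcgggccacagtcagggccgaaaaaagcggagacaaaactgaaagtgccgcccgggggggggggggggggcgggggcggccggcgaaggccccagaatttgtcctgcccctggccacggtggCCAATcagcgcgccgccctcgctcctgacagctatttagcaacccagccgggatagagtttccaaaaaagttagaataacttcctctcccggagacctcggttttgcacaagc
The ratio of observed to expected CpG was 0.83 for Twist1 and 0.80 for Twist2, values that 23.3% and 25.9% of coding promoters reached, and GC content was 66.0% and 64.7%, against medians of 0.53 and 55.0% over coding promoters. Both promoters hold CCAAT, that of Twist1 alone holds TATAAA, and neither holds an E-box. The occupied and the unoccupied start were close in these values, and a link between composition and occupancy was not tested. The promoters of the paired-type genes were lower in CpG, with ratios of 0.27 for Prrx1, 0.19 for Prrx2, 0.64 for Alx1 and 0.50 for Alx4.

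**Figure D4:**
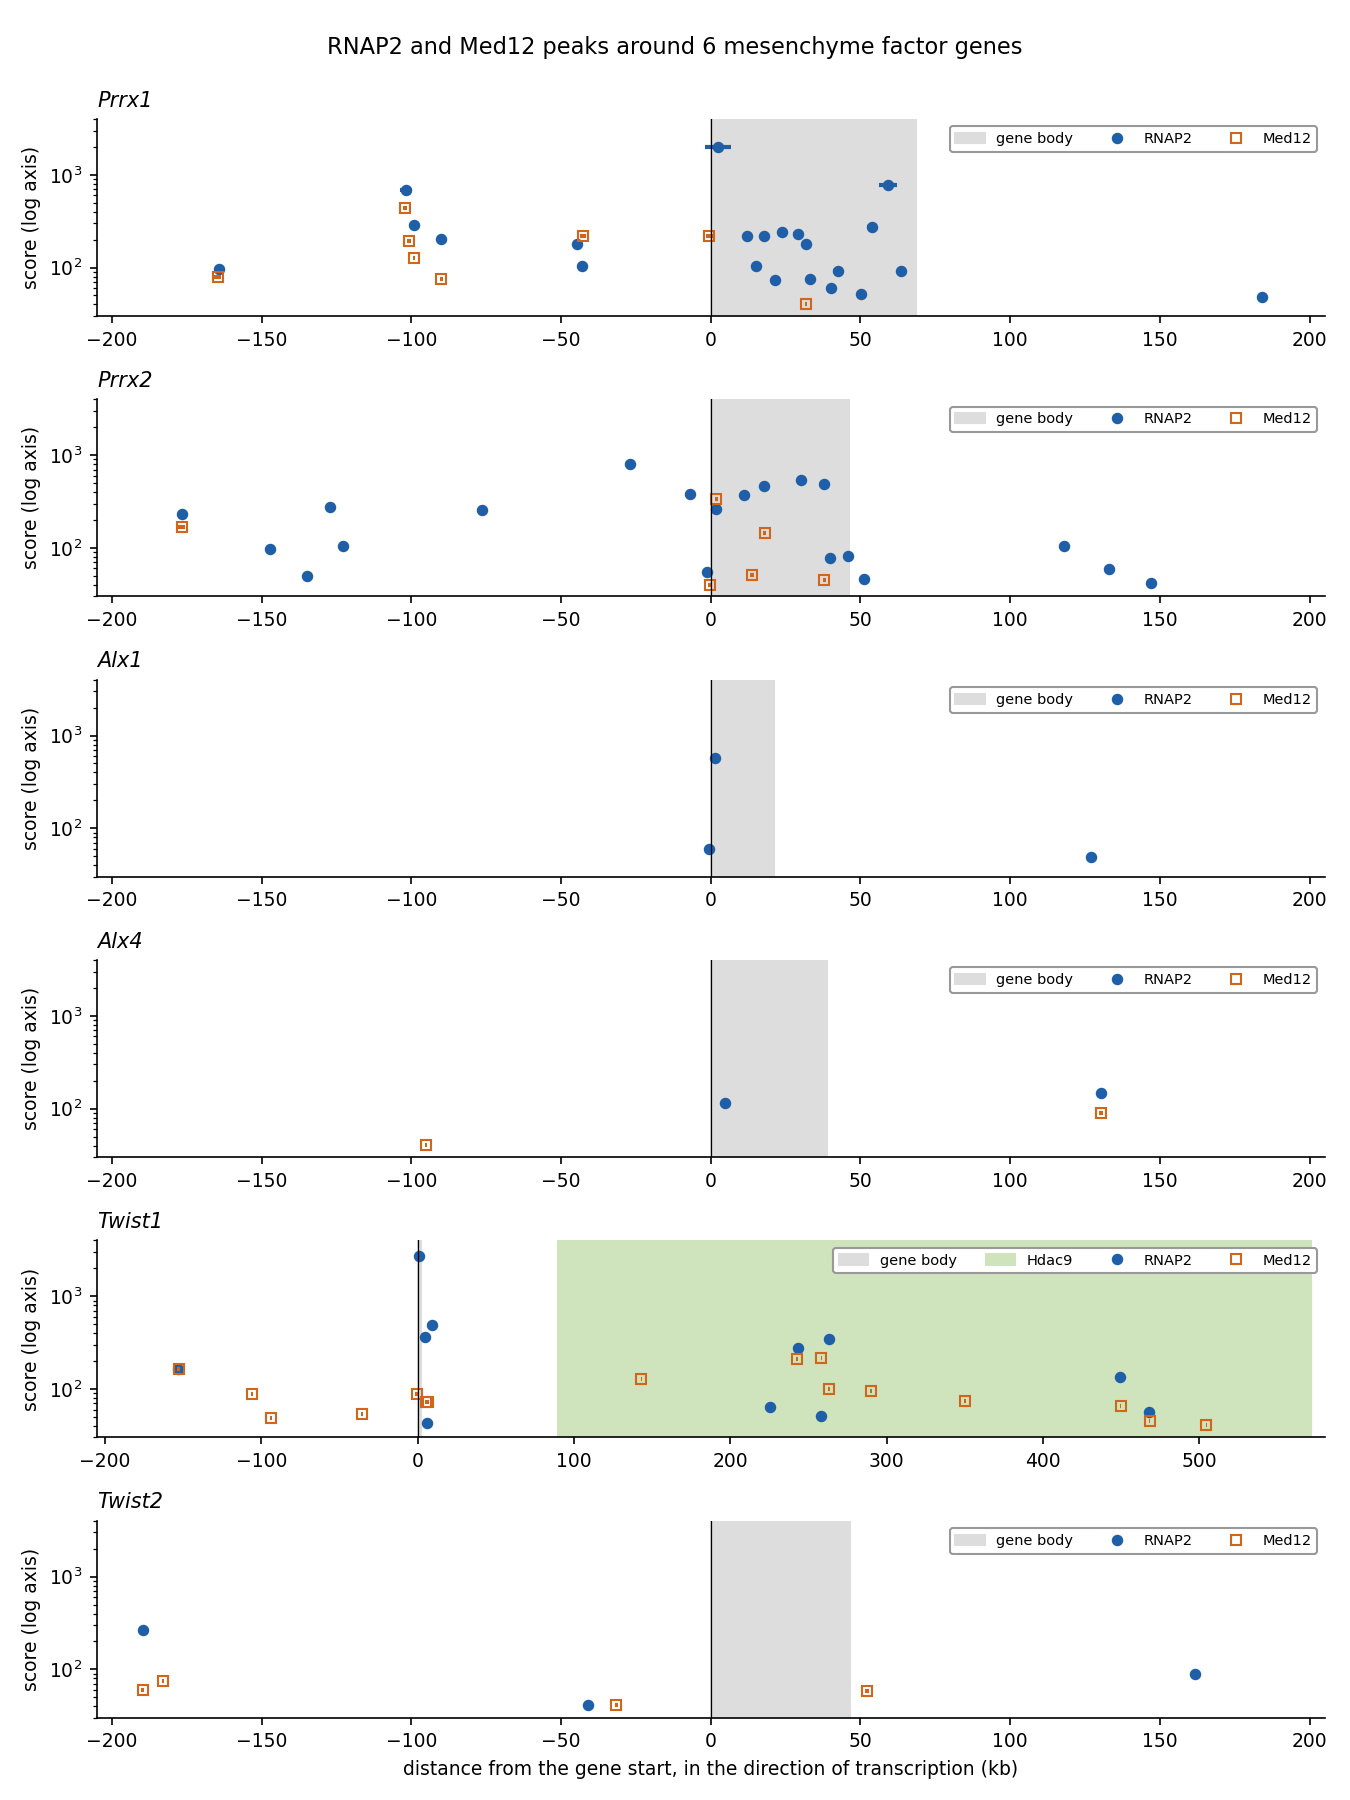
Position of each peak from the gene start in the direction of transcription (horizontal axes, kb) and its score (vertical axes, log scale) for the 6 genes, with RNAP2 as blue circles and Med12 as open orange squares, and bars for the width of the peak. Grey marks the gene and green marks Hdac9. Separate RNAP2 peaks cover 57.1% of the Prrx1 gene, and sites with both proteins lie upstream of Prrx1 and inside Hdac9. The windows of Alx1, Alx4 and Twist2 hold 3, 2 and 3 RNAP2 peaks and 0, 2 and 4 Med12 peaks.

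Upstream of Twist1 lay 1 site with both proteins and 3 with Med12 alone. The site with both, from 34488673 to 34489864 and 153 kb from the start, scored 163.5 for RNAP2 and 163 for Med12. The Med12 peaks without RNAP2 were 105 kb, 93.2 kb and 35.0 kb upstream, with scores of 87.9, 49.3 and 53.8. Ferd3l, a bHLH gene between these sites and Twist1, had no peak at its start. The windows of the Twist genes were those with more Med12 than RNAP2 peaks, 16 against 11 for Twist1 with Hdac9 included, 8 against 5 within 200 kb of Twist1, and 4 against 3 for Twist2.

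Inside Hdac9, downstream of Twist1, 5 further RNAP2 peaks overlapped Med12. All of them lay beyond 200 kb from the Twist1 start. A cluster of 3 spanned 34884275 to 34907022. The first, 242 kb from the Twist1 start and in an intron, scored 276 for RNAP2 and 213 for Med12. The next, at 258 kb, had a low RNAP2 score of 51.4 but the highest Med12 score of the Twist1 window, 215. The last, at 262 kb, had the highest RNAP2 score within Hdac9, 348, with Med12 at 100.4. Farther on, sites at 449 kb and 467 kb had 134 and 56.5 for RNAP2 and 65.9 and 45.7 for Med12. Med12 alone was found in Hdac9 at 143 kb (129), 289 kb (94.8), 350 kb (74.3) and 504 kb (41.2), and RNAP2 alone at 225 kb (63.7).

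Not all of the Hdac9 sites were intronic. The peaks at 258 kb covered the whole of exon 9 of the Hdac9 transcript that starts at 35058985, 120 bp from 34900286 to 34900405. At 262 kb both peaks covered exon 8 of that transcript (88 bp, 34905737 to 34905824), and the RNAP2 peak also covered exon 7. At 449 kb, RNAP2 and Med12 overlapped 113 bp and 64 bp of the 132 bp of exon 7 of the transcript that starts at 35213754. The start of Hdac9 itself, at 35213754, had no peak of either list within 1 kb, the nearest RNAP2 peak being 64760 bp and the nearest Med12 peak 34293 bp away. The peaks within the gene thus occurred without a called RNAP2 peak at its annotated 5′ end. Whether these sites act on Twist1, on Hdac9 or on another gene was not tested by these data.

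The central 200 bases of the overlap are shown for the upstream site (chr12:34489304-34489503) and for the 3 clustered sites of Hdac9 (chr12:34885225-34885424, chr12:34900654-34900853 and chr12:34905388-34905587), on the plus strand of mm9, because they had the highest Med12 scores among the distal sites of Twist1 with both proteins. Capitals mark E-boxes and TAATTA. The stretches at 258 kb and 262 kb lie beside the exons named above and do not include them.
Twist1 site 153 kb upstream: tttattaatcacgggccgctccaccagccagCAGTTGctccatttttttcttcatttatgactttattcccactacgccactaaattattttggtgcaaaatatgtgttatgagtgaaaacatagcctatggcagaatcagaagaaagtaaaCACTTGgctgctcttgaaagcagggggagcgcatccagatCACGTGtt
Hdac9 site 242 kb downstream of the Twist1 start: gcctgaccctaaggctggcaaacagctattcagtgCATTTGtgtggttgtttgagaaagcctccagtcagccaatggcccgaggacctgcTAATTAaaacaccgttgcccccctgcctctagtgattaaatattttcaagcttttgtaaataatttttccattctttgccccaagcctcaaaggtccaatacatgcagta
Hdac9 site 258 kb downstream of the Twist1 start: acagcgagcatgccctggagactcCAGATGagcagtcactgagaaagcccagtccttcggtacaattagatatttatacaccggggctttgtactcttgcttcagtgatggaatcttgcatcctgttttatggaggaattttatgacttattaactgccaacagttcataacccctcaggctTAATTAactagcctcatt
Hdac9 site 262 kb downstream of the Twist1 start: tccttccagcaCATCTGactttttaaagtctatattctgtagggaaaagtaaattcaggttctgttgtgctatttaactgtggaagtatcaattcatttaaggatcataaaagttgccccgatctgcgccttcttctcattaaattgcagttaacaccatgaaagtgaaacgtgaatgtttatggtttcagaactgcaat
The upstream site holds 3 E-boxes, the last of which is the palindrome CACGTG, and each Hdac9 site holds 1. The E-boxes at 258 kb and 262 kb are CAGATG on either strand, and the sites at 242 kb and 258 kb also hold TAATTA.

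These letters were not more frequent than elsewhere over the 17 distal sites with both proteins. An E-box stood in the central 200 bases of 10 of them (58.8%), against 69.2% of all 2669 such sites of the genome. CAGATG was found in 2 (11.8%, against 20.5%), CATATG in 0 (against 6.67%) and TAATTA in 2 (11.8%, against 11.5%). The paired homeodomain palindrome, TAAT and ATTA separated by 2 or 3 bases, was found in none, against 0.599% of all sites for either spacing. An E-box followed by TAATTA at a spacing of up to 10 bases was found in none, against at most 0.375% of all sites at a given spacing. The median GC content of the 17 windows was 43.5%, against 43.0% over all such sites. A match of these short motifs is a description of the letters and does not show that a factor bound there.

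Most dimer partners and inhibitors of Twist had both proteins at the start. Of 9 such bHLH genes, 8 had RNAP2 at the start and 6 had Med12 as well, read against the shares of 40.0% and 8.20% given above. The Id genes, which encode inhibitors that bind E proteins without binding DNA, all had the score of 3100 at which 311 RNAP2 peaks are tied, and Med12 scored 1759 at Id1 and 145 at Id2, lay between these at Id3 and was not called at Id4. Hand2, a partner of Twist1 that acts in the posterior limb, had RNAP2 at 3100 and Med12 at 272, whereas Hand1 had neither. Of the E protein genes, Tcf4 had 1750 and 89.1, Tcf3 had 196 and 123, and Tcf12 had RNAP2 alone (684). Tcf4 also had 9 distal sites with both proteins in its window and 61 RNAP2 peaks in the gene. The 99th percentiles over coding genes were 4 and 8, and the Tcf4 counts were not set against the length of the gene.

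Other bHLH genes close to Twist were occupied about as often as coding genes at large, with RNAP2 at 2 of 6 starts, against 40.0%, and Med12 at none, against 8.20%. Scx, a tendon factor, had RNAP2 at the start with 351 and Tcf21 with 135, while Tcf15, Msc, Ferd3l and Ptf1a had none. Of 19 paired-type homeobox relatives found in the annotation, 10 had RNAP2 at the start and none had Med12, against the same shares of 40.0% and 8.20%. Prrx1 and Prrx2 were the paired-type genes examined with a Med12 start call, and that of Prrx2 was lost at a minimum score of 50. Among these relatives was Shox2, a factor of the proximal limb, with an RNAP2 score of 192. Genes best known outside the limb were also in this group, with 569.6 for Otx2 and 466 for Gsc, over peaks of 7506 bp and 6331 bp. Med12 at the start, counted over the members and all 3 lists, was seen at Prrx1, Prrx2, Twist1, Tcf3, Tcf4, Hand2, Id1, Id2 and Id3.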

How the data were processed

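ChIP-seq of RNAP2 and of Med12 was done on cells of distal forelimbs at E12.5. The authors mapped reads to mm9 with Bowtie and called peaks with MACS 1.4.1, and whether the input served as control is not given in the sources used here. The deposited value of each peak is a score, −log10 of a p-value multiplied by 10, and 311 RNAP2 peaks share the score 3100. The lists reach down to a score of 40.0, a p-value of 0.0001, which is weaker than the threshold the methods state. No replicates exist, so no test was made.

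Positions were converted to 1-based coordinates of mm9 and compared with the GENCODE vM1 annotation in Python 3.11.15 with numpy 2.4.6 and pandas 2.3.3, and figures were drawn with matplotlib 3.10.9. Peaks overlapped when they shared at least 1 bp. The start of a gene is the 5′ end of its record, and a distal peak lay more than 1 kb from every annotated transcript start. The counting was tested on simulated peaks. The members, the gene lists and the motifs were chosen with earlier results of these data known. The text names the 6 genes and Hdac9, neighbours whose start has a peak, the genes of the lists and markers, every peak within 1 kb of a member start, every distal RNAP2 peak with Med12, and the highest peak of each window. Peaks and neighbours outside this rule were named after their values were seen. Drgx was not found under that name and is left out of its list. Some genes of the lists are not reported here by name. Sequences were read from the mm9 assembly, and motifs were searched on both strands, overlaps allowed. Alternatives were score minimums of 50 and 100, an overlap of 50% of the shorter peak, a gap of 500 bp, windows of 100 kb and 400 kb, starts within 5 kb, and protein-coding starts alone as limits of distal sites. The windows of 100 kb and 400 kb kept the whole of Hdac9 for Twist1, so its downstream limit did not change. Starts of any coding transcript and a Twist1 window without Hdac9 beyond 200 kb were added after the data were seen.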

Additional observations from a re-analysis of the deposited data

How the results depend on the processing

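The counts rest on 1 library for each antibody, and the lists give no depth for a single peak, so a peak that is not called cannot be read as absence of the protein. Of 50 recomputed counts over the 6 genes, 46 stayed within 1.5 times the value in the report, and the other 4 all fell with a score of at least 100. That minimum left 37 RNAP2 peaks, 13 Med12 peaks, 8 distal sites with both and 1 gene with Med12 at the start, Prrx1. Over the whole lists it kept 11621 of 20479 RNAP2 peaks and 1966 of 10634 Med12 peaks. Many of the 50 counts could not change, because overlap, gap and start settings do not touch the peak counts. Window, overlap and gap settings likewise do not touch the start counts, so 46 of 50 is no measure of stability. At a minimum of 50 the Med12 call at the Prrx2 start was lost as well, and this fall from 3 to 2 genes lies within 1.5 times. Of 300 values for single genes 35 moved, 15 of them at a score of at least 100, and many of the 300 could not change either. Counting starts within 5 kb added Alx4 to the genes with RNAP2, and leaving out Hdac9 beyond 200 kb gave 12 distal sites with both. No paired analysis was possible because there are no replicates.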
